A study of Homo sapiens with 12 samples.

Results

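G-quadruplex (G4) DNA forms where 4 runs of guanines in single-stranded DNA stack into a four-stranded knot, and a small group of helicases opens it again. The transcripts of 10 helicases from this group and the RecQ family were followed here. The 10 were BLM, WRN, RECQL, RECQL4 and RECQL5 of the RecQ family, BRIP1, RTEL1 and DDX11 of the iron-sulfur family, PIF1, and the DEAH-box protein DHX36. They were chosen by gene symbol as helicases known to unwind G4 structures together with the remaining RecQ family members, with no threshold on their values. All 10 were found among the 25365 gene names of the table, and all 10 passed the filter on low values (a mean of 1 FPKM or more over the 12 libraries), which left 11881 genes to test. FPKM is a level corrected for transcript length and library size, so levels can be set side by side between genes.

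The cells were A549, an epithelial line from a human lung adenocarcinoma, either wild type or labelled PARP3-/-. The knockout was made with Cas9 directed at the first exon of PARP3, and cells were then cloned by serial dilution, so genotype and clone cannot be told apart. Each genotype received vehicle (DMSO) or 1 μM pyridostatin, a small molecule that binds and stabilises G4 structures, for 24 h. Each of the 4 groups had 3 biological replicates, giving 12 poly(A) RNA libraries, and p-values measure the spread between these. PARP3 itself was not lower in the libraries labelled PARP3-/-: it was at 3.83, 3.40 and 3.96 FPKM in wild type with vehicle and at 4.92, 4.07 and 4.25 FPKM in the libraries labelled PARP3-/-. Averaged over both treatments it was higher there by 0.21 ± 0.0506 (log2, SE, limma adjusted p = 0.0154). A gene-level value does not show whether an exon is interrupted, so this measurement checks neither the deletion nor the labels.

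G4 helicases work mainly at replication forks, at telomeres and in G-rich promoters. BLM and WRN, lost in Bloom and Werner syndromes, act in recombination and at stalled forks; BRIP1 (FANCJ) is a partner of BRCA1, and RTEL1 unfolds telomeric loops and G4 structures during replication. DDX11 serves sister chromatid cohesion, PIF1 acts in the nucleus and in mitochondria, and DHX36 binds G4 structures in RNA as well as DNA with high affinity. RECQL4 takes part in the initiation of replication, and RECQL5 binds RNA polymerase II. The comparisons ask whether cells alter the transcripts of these helicases when a ligand stabilises G4 DNA. They also ask whether the loss of PARP3, which was studied as a factor that limits G4 DNA, alters these transcripts.

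In wild-type cells with vehicle the 10 transcripts spanned a wide range. DHX36 (28.1 ± 2.34 FPKM, SD, n = 3) and RECQL (27.0 ± 3.16) stood highest, with overlapping libraries, followed by RECQL4 (19.99 ± 1.27) and DDX11 (14.7 ± 0.678). BLM (9.87 ± 1.42) and RECQL5 (9.84 ± 0.319) overlapped and were followed by PIF1 (7.11 ± 0.675). RTEL1 (5.42 ± 0.487), WRN (4.54 ± 0.773) and BRIP1 (3.53 ± 0.617) were lowest, and each overlapped the next. Among all genes tested, the means over the 12 libraries lay between the 20.5th percentile (BRIP1) and the 75.6th (DHX36). The order changed little across the groups. With pyridostatin, RTEL1 fell below WRN in both genotypes, with no overlap, and in the libraries labelled PARP3-/- it overlapped BRIP1, the lowest of the 10. The summed level of the 10 genes was 130.1 ± 5.13 FPKM in wild type with vehicle, 136 ± 3.78 in PARP3-/- with vehicle, 126 ± 1.85 in wild type with pyridostatin and 124 ± 4.24 in PARP3-/- with pyridostatin.

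**Figure D1:**
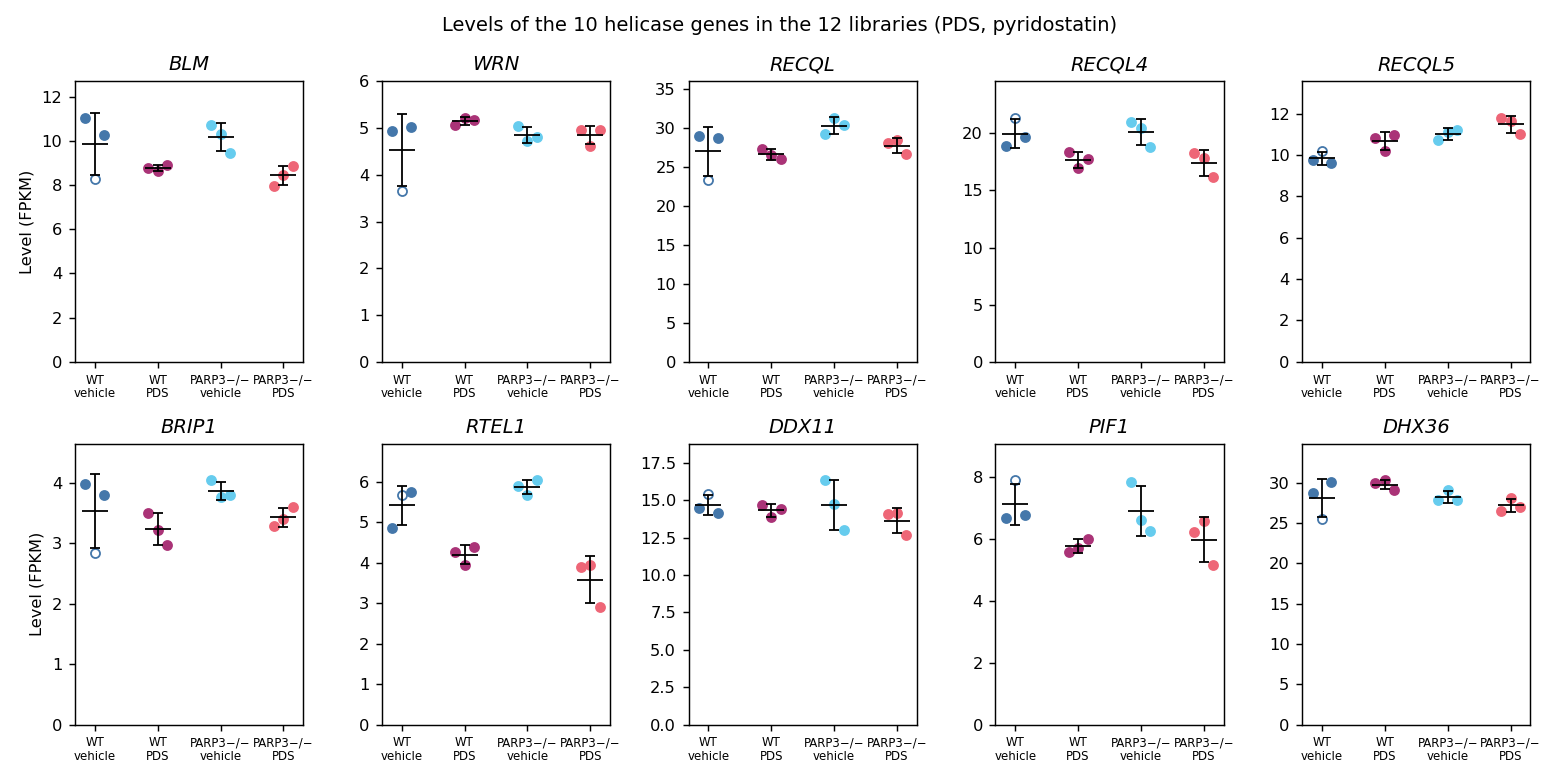
Level (FPKM, linear axis from 0) of each of the 10 helicase genes in the 12 libraries, by group. Points are libraries, the bar and whiskers are the mean and SD of 3 libraries, and the open point is replicate 2 of wild type with vehicle, which is the lowest of its group for 5 genes and the highest for 4; RTEL1 is lower in all 6 pyridostatin libraries than in all 6 vehicle libraries.

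Replicate 2 of wild type with vehicle stood apart from the other libraries and touches most results below. Against the mean of the other 2 libraries of its group it was lower for BRIP1 (-27.2%), WRN (-26.8%), BLM (-22.1%), RECQL (-19.0%) and DHX36 (-13.2%) and higher for PIF1 (17.4%), RECQL4 (10.8%), DDX11 (7.97%) and RECQL5 (5.55%). Across all genes tested with a known length, those in the shortest tertile had a median deviation of 0.103 (log2) from the mean of its group in this library and those in the longest tertile one of -0.118. In the 9 libraries of the other groups such medians ran from -0.0321 to 0.0267. The main counts of calls are also given without it. From the steps of low FPKM values the libraries held roughly 21600000 to 30500000 reads, which put about 340 (PIF1) to 6200 (DHX36) reads on a member per library, a counting error of 1.3% to 5.4%. Epithelial KRT8 (2766 to 3375 FPKM) and KRT18 were abundant in every library, while CDH1 (9.85 to 16.7 FPKM) and EPCAM (0.879 to 2.36 FPKM) were far lower. Of the markers of other cell types, CD3E was at 0 in all and PTPRC, COL1A2, DCN, PECAM1 and VWF were below 0.04 FPKM in all. The remaining markers of other cell types were present in every library: CD68 at 13.98 to 21.1, CD14 at 2.81 to 6.26 and COL1A1 at 0.572 to 1.63 FPKM.

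Pyridostatin lowered the transcripts of RTEL1, RECQL4 and, at the edge of the threshold, PIF1, and raised none of the 10 past the test. With both genotypes averaged (6 libraries against 6), 3 of 10 helicases were called lower and 0 higher at a limma adjusted p under 0.05, beside 13.9% of all genes tested that were called in either direction (6.24% lower). The median log2 fold change of the 10 was -0.09, against 0.00093 over all genes tested. None of the 10 passed with an absolute log2 fold change above 1, which 0.0505% of all genes tested did. Without replicate 2 of wild type with vehicle, 5 helicases were called lower (RTEL1, RECQL4, BLM, BRIP1 and RECQL, but not PIF1) and 1 higher (RECQL5), beside 19.5% of all genes. In a bulk sample, fewer cells of a kind and less RNA per cell cannot be told apart.

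RTEL1 moved most. It was at 4.86, 5.66 and 5.74 FPKM in wild type with vehicle and at 4.27, 3.93 and 4.40 FPKM with pyridostatin. In the libraries labelled PARP3-/- it was at 5.90, 5.69 and 6.04 FPKM with vehicle and at 3.88, 3.94 and 2.91 FPKM with pyridostatin. All 6 pyridostatin libraries were below all 6 vehicle libraries, which was so for 2.46% of all genes tested. The mean fell by 31.1% with pyridostatin (3.89 against 5.65 FPKM), and the log2 fold change was -0.45 ± 0.0631 (SE, limma adjusted p = 0.00129). The fall was called in PARP3-/- (-0.59 ± 0.0892, adjusted p = 0.0039) and not in wild type (-0.30 ± 0.0892, adjusted p = 0.0901). That contrast between genotypes was itself tested as an interaction and was not called (-0.29, 95% confidence interval -0.57 to -0.01, adjusted p = 0.999).

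That contrast was smaller once rows that share reads were added together. The table has a separate row for RTEL1-TNFRSF6B, a read-through transcript that shares the exons of RTEL1, and cufflinks divides shared reads between such rows by estimate. This row was at 1.43, 1.28 and 1.10 FPKM in wild type with vehicle and at 0.234, 0.705 and 0.00665 FPKM with pyridostatin. In PARP3-/- it was at 1.05, 0.723 and 0.000142 FPKM with vehicle and at 0.00188, 0.337 and 0.867 FPKM with pyridostatin, so libraries of one group ran from near 0 to levels close to the highest. With the row added to RTEL1, the sum was 6.69 ± 0.346 FPKM in wild type with vehicle and 4.52 ± 0.116 with pyridostatin (SD, n = 3). In PARP3-/- the sum was 6.46 ± 0.460 FPKM with vehicle and 3.98 ± 0.262 with pyridostatin. The summed fall was called in wild type (-0.48, adjusted p = 0.0012) and in PARP3-/- (-0.58, adjusted p = 0.000413), and the interaction shrank to -0.11 (adjusted p = 0.999). TNFRSF6B, a decoy receptor gene just downstream, was also lower in the average (-0.34 ± 0.081, adjusted p = 0.0189), with a range of 1.93 to 2.55 FPKM over vehicle libraries and 0.915 to 1.99 FPKM over pyridostatin libraries.

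**Figure D2:**
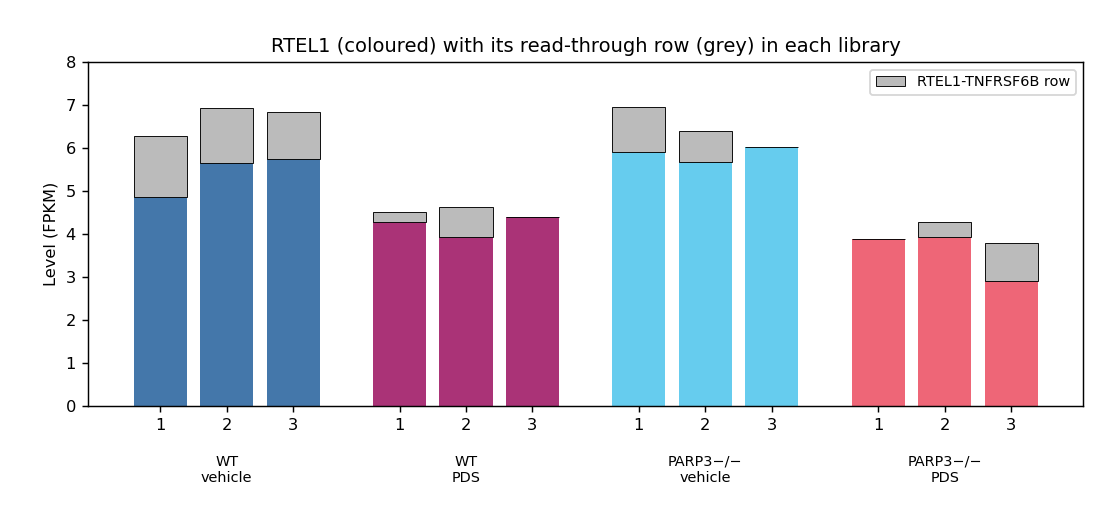
Level of RTEL1 (coloured bars) with the RTEL1-TNFRSF6B row stacked on it (grey), in FPKM on a linear axis from 0, for each of the 12 libraries (replicates 1 to 3 of each group). The stacked totals lie between 6.04 and 6.95 FPKM in the 6 vehicle libraries and between 3.78 and 4.64 FPKM in the 6 pyridostatin libraries, with the grey share uneven within groups.

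RTEL1 has 2 annotated start windows, shown because it was the member with the largest change. Each window below runs from 250 bases before to 50 bases after a RefSeq start (GRCh38.p14, plus strand, chr20:63657560-63657859 and chr20:63658062-63658361). Capitals in the first window mark overlapping matches (bases -103 to -66 from the start) to a pattern of 4 runs of at least 3 G separated by 1 to 7 bases. Such a sequence can fold as a G4. In the second window capitals mark a match to the letters TTTNNCGC (N is any base), read on the minus strand (bases -107 to -100).
RTEL1 window 1: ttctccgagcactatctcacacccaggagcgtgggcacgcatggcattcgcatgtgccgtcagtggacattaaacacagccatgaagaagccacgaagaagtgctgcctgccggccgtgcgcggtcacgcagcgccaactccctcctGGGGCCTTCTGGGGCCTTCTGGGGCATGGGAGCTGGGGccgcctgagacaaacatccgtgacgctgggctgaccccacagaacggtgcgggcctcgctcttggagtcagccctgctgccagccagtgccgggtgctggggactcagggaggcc
RTEL1 window 2: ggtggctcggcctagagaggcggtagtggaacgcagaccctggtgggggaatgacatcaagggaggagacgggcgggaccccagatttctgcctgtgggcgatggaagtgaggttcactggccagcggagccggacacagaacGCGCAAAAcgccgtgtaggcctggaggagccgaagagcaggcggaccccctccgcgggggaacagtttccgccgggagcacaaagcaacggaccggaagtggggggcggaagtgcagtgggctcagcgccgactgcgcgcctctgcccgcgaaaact
The G-run pattern was searched on both strands and is common, in 8778 of all 35116 promoter windows and in 34.0% of those of genes tested here. TTTNNCGC was in 6.89% of all windows and 10.0% of those of genes tested. A match is a description of the letters only.

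RECQL4 and PIF1 were the other members called lower. RECQL4, a RecQ protein needed to start replication, was at 18.9, 21.4 and 19.7 FPKM in wild type with vehicle and 18.3, 17.0 and 17.8 FPKM with pyridostatin. In PARP3-/- it was at 21.0, 20.4 and 18.8 FPKM with vehicle and 18.3, 17.9 and 16.1 FPKM with pyridostatin. As for RTEL1, all 6 pyridostatin libraries lay below all 6 vehicle libraries, but by little (highest 18.3 against lowest 18.8 FPKM), and the mean fell by 12.4%. The averaged log2 fold change was -0.18 ± 0.0434 (SE, adjusted p = 0.0200), with -0.17 in wild type (adjusted p = 0.166) and -0.20 in PARP3-/- (adjusted p = 0.0986), neither called by itself. Without replicate 2 of PARP3-/- with vehicle the averaged call was lost (adjusted p = 0.0518). The neighbouring genes LRRC14 (9.24 to 10.9 FPKM) and MFSD3 (20.2 to 28.1 FPKM) lie next to RECQL4, and neither was called in any comparison.

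PIF1 was at 6.68, 7.89 and 6.76 FPKM in wild type with vehicle and 5.57, 5.72 and 5.999 FPKM with pyridostatin. In PARP3-/- the libraries overlapped, at 7.82, 6.62 and 6.27 FPKM with vehicle and 6.20, 6.56 and 5.16 FPKM with pyridostatin. The averaged change of -0.22 ± 0.0658 (log2, SE) sat at the edge of the threshold (adjusted p = 0.0496) and was called in 7 of 21 alternative settings, with adjusted p from 0.0235 to 0.109. Without replicate 2 of wild type with vehicle, where PIF1 was highest, it was -0.19 (adjusted p = 0.0740).

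BLM, the helicase that the study followed on chromatin, was lower with pyridostatin but just missed the threshold. It was at 11.1, 8.30 and 10.3 FPKM in wild type with vehicle and at 8.75, 8.65 and 8.90 FPKM with pyridostatin. In PARP3-/- it was at 10.7, 10.3 and 9.46 FPKM with vehicle and at 7.98, 8.47 and 8.87 FPKM with pyridostatin, without overlap. In wild type, the only vehicle library at or below the pyridostatin libraries was replicate 2. The averaged log2 fold change was -0.19 ± 0.0595 (SE, 95% confidence interval -0.32 to -0.06, adjusted p = 0.0551), with a change of -14.1% in the mean. Without that replicate BLM was called in the average (-0.25, adjusted p = 0.00231), in wild type (-0.25, adjusted p = 0.0330) and in PARP3-/- (-0.24, adjusted p = 0.0161). In PARP3-/- the fold change of BLM was the same with that replicate (adjusted p = 0.135), which enters there only through the shared estimate of the spread. The averaged change of BLM was also called after quantile normalisation (adjusted p = 0.0196) or a shift to a common median (adjusted p = 0.0217).

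BRIP1 and RECQL showed the same dependence on that library. BRIP1 was at 3.98, 2.83 and 3.79 FPKM in wild type with vehicle, 3.50, 3.22 and 2.97 FPKM in wild type with pyridostatin, 4.04, 3.77 and 3.80 FPKM in PARP3-/- with vehicle and 3.28, 3.40 and 3.59 FPKM in PARP3-/- with pyridostatin. Its averaged change was -0.12 ± 0.0639 (log2, SE, adjusted p = 0.265), and -0.17 without replicate 2 of wild type with vehicle (adjusted p = 0.0152). RECQL, the most abundant RecQ transcript, was at 28.97, 23.3 and 28.6 FPKM in wild type with vehicle, 27.3, 26.6 and 26.0 FPKM in wild type with pyridostatin, 29.2, 31.3 and 30.3 FPKM in PARP3-/- with vehicle and 28.1, 28.4 and 26.7 FPKM in PARP3-/- with pyridostatin. Only in PARP3-/- were its groups apart. Its averaged change was -0.07 ± 0.0499 (adjusted p = 0.407), and -0.12 without that library (adjusted p = 0.0141).

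Most members with an examined window share the motif CCAAT. Examples shown are the promoter windows of BLM (GRCh38.p14, chr15:90717096-90717395, plus strand), PIF1 (chr15:64825598-64825897, minus strand) and BRIP1 (chr17:61863479-61863778, minus strand). They were picked after the motif was found, and RECQL, with 5 matches, is not shown. Capitals mark CCAAT, the core bound by NF-Y, on either strand (ATTGG is its reverse). In BRIP1 they also mark overlapping matches to the pattern of 4 runs of at least 3 G (bases -33 to 7), a stretch that takes in the ATTGG nearest the start.
BLM: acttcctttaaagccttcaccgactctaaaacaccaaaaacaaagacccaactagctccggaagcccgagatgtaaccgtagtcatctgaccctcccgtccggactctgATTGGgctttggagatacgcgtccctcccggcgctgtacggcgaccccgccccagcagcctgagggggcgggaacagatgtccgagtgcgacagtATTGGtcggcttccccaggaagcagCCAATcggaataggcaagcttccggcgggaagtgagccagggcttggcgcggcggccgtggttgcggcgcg
PIF1: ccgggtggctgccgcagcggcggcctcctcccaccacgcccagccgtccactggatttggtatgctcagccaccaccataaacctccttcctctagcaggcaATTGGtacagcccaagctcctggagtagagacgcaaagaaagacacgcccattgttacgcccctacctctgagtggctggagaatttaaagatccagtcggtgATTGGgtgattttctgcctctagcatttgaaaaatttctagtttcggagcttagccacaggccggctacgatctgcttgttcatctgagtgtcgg
BRIP1: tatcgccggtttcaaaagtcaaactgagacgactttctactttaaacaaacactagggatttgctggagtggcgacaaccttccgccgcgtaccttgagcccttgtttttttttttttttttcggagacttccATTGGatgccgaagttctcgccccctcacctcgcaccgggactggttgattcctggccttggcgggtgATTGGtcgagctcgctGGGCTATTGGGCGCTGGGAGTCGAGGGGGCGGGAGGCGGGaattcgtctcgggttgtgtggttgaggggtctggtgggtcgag
CCAAT was present in 6 of the 8 members whose windows were examined (BLM, PIF1, BRIP1, RECQL, RECQL5 and DHX36) and in 34.7% of the windows of genes tested. The first is a count of members and the second a share of windows, and the 8 members have 10 windows. Windows of RECQL4 and WRN were not examined. No window of RTEL1 or DDX11 held CCAAT. Whether the motif has a part in any change was not tested.

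WRN, DHX36, DDX11 and RECQL5 were not lower with pyridostatin past the test. WRN was at 4.95, 3.64 and 5.02 FPKM in wild type with vehicle against 5.07, 5.22 and 5.18 FPKM with pyridostatin, and at 5.04, 4.72 and 4.81 FPKM against 4.97, 4.62 and 4.96 FPKM in PARP3-/-. Its averaged change was 0.08, with a 95% confidence interval of -0.05 to 0.21. DHX36 changed by 0.01 (-0.07 to 0.10), with levels between 25.5 and 30.3 FPKM in all 12 libraries. RECQL5 pointed upwards, at 0.08 ± 0.0299 (log2, SE, adjusted p = 0.103) and called higher without replicate 2 of wild type with vehicle (0.09, adjusted p = 0.0474).

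DDX11 (12.7 to 16.3 FPKM over all libraries) changed by -0.06 (95% confidence interval -0.18 to 0.05). Reads of DDX11 can be shared with the near-identical copy DDX12P, listed at 6.64 to 9.49 FPKM, and with the antisense gene DDX11-AS1 (0.357 to 0.747 FPKM). With DDX12P added, the averaged change was -0.09 and was not called. Of the related DDX11L copies, DDX11L2 was at 0.995 to 1.56 FPKM, DDX11L1 at 0.189 to 0.366, DDX11L5 at 0.139 to 0.217, DDX11L9 at 0.192 to 0.319 and DDX11L10 at 0.144 to 0.294 FPKM.

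Within single genotypes, 0 of 10 helicases were called in wild type by limma, where 4.17% of all genes were called, and 1 of 10 in PARP3-/- (RTEL1), where 5.56% were. These counts, with replicate 2 of wild type with vehicle left out, were 1 (BLM, beside 5.94%) and 4 (RTEL1, BLM, RECQL and RECQL4, beside 13.1%). That library is outside the PARP3-/- comparison and enters it only through the shared estimate of the spread. The fold changes of BLM, RECQL and RECQL4 there stayed the same. At an unadjusted p under 0.05, RTEL1, RECQL4, PIF1 and RECQL5 passed in wild type (20.3% of all genes) and RTEL1, RECQL4 and BLM in PARP3-/- (19.6%). Groups did not overlap for 3 helicases that were lower (RTEL1, RECQL4 and PIF1) and 1 that was higher (WRN) in wild type, beside 9.71% and 13.4% of all genes. In PARP3-/- 5 were lower without overlap (RTEL1, RECQL4, BLM, BRIP1 and RECQL), beside 15.7% of all genes. For no helicase did the effect of pyridostatin differ between genotypes past the test. The interaction was called for 0 of 10 helicases and 0 of 11881 genes (521 genes, 4.39%, at an unadjusted p under 0.05, RTEL1 among the 10). Both simple comparisons and their average use the same libraries.

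**Figure D3:**
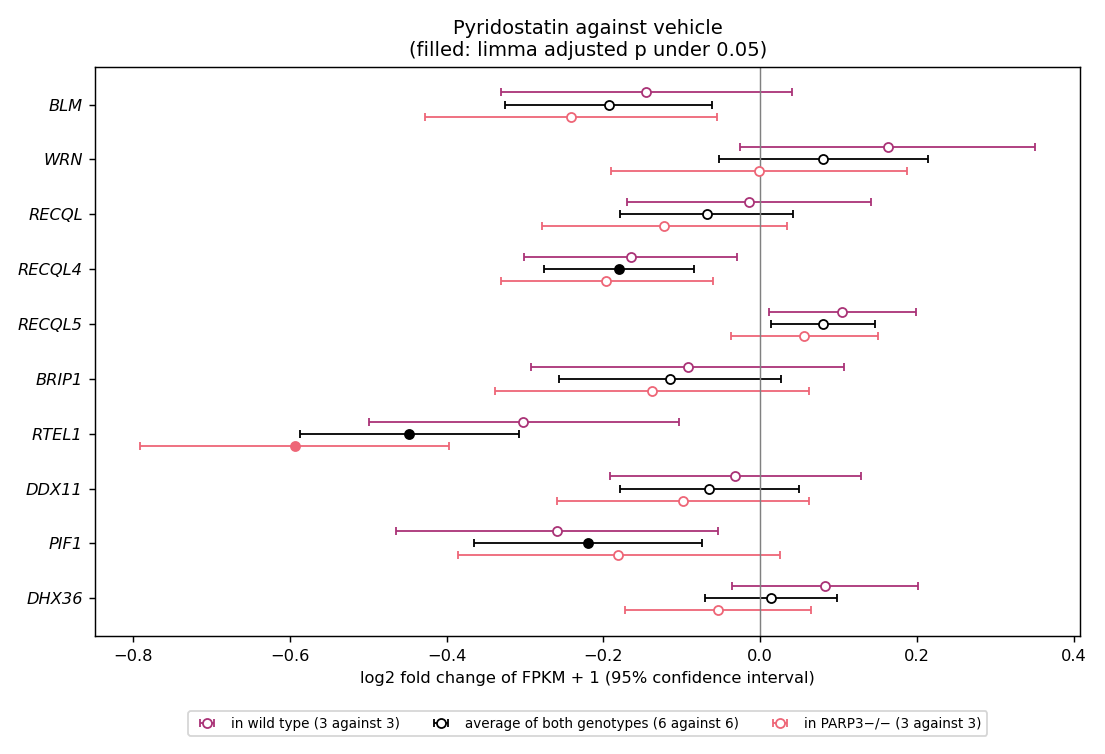
Log2 fold change of FPKM + 1 with pyridostatin for the 10 helicase genes, with 95% confidence intervals, in wild type (upper marker), averaged over genotypes (middle) and in PARP3-/- (lower); filled markers have a limma adjusted p under 0.05. RTEL1 lies farthest from 0 (-0.30, -0.45 and -0.59), and the intervals of WRN, DHX36, BRIP1, RECQL and DDX11 include 0 in all 3 comparisons.

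Genes that work with or beside the helicases were counted in the same averaged comparison, where 13.9% of all genes tested were called (6.24% lower). Of 27 direct partners of the helicases, 12 fell and 1 rose (median -0.13). Falls were found in GINS2 (-0.43) and CDC45 (-0.37), both parts of the replicative CMG helicase, and MCM10 (-0.31), a replication initiation factor. TERF2, a telomere protein that recruits RTEL1, was the partner that rose (0.25). Of 19 other DNA helicases and translocases, 1 fell (HELLS, a chromatin remodeller, -0.19), 0 rose and the median was 0.02. Of 17 G4-binding and single-strand-binding proteins, 6 fell and 1 rose. CNBP (-0.19), which binds G-rich sequences, and the RPA subunits RPA3 (-0.17) and RPA2 (-0.16) fell most.

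The replication genes that were called all fell, and the p53 targets all rose. Of all genes tested, 6.24% were called lower and 7.71% higher. Of 23 S-phase and proliferation genes, 18 fell and 0 rose (median -0.21), led by E2F1 (-0.41), a transcription factor of the G1/S transition, and the replicative helicase subunits MCM6 (-0.36), MCM2 (-0.32) and MCM3 (-0.31). Their summed level was 1479 to 1501 FPKM in wild type with vehicle and 1346 to 1374 with pyridostatin, and 1461 to 1518 and 1295 to 1314 FPKM in PARP3-/-. The 10 p53 targets rose by a median of 0.82, among them BTG2 (1.14), CDKN1A (1.10), SESN1 (0.92) and BBC3 (0.89). The sum of the p53 targets was 311 to 363 FPKM over the 6 vehicle libraries and 564 to 605 FPKM over the 6 pyridostatin libraries. The lower helicase levels stood beside lower S-phase transcripts in the same libraries, and the part of one in the other was not tested. Once replicate 2 of wild type with vehicle was left out, 17 partners fell and 2 rose, 7 other helicases fell, 6 G4-binding proteins fell and 1 rose, and the counts of S-phase genes and p53 targets were again 18 and 10. Of all genes tested, 19.5% were then called in either direction, against 13.9% with that library.

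**Figure D4:**
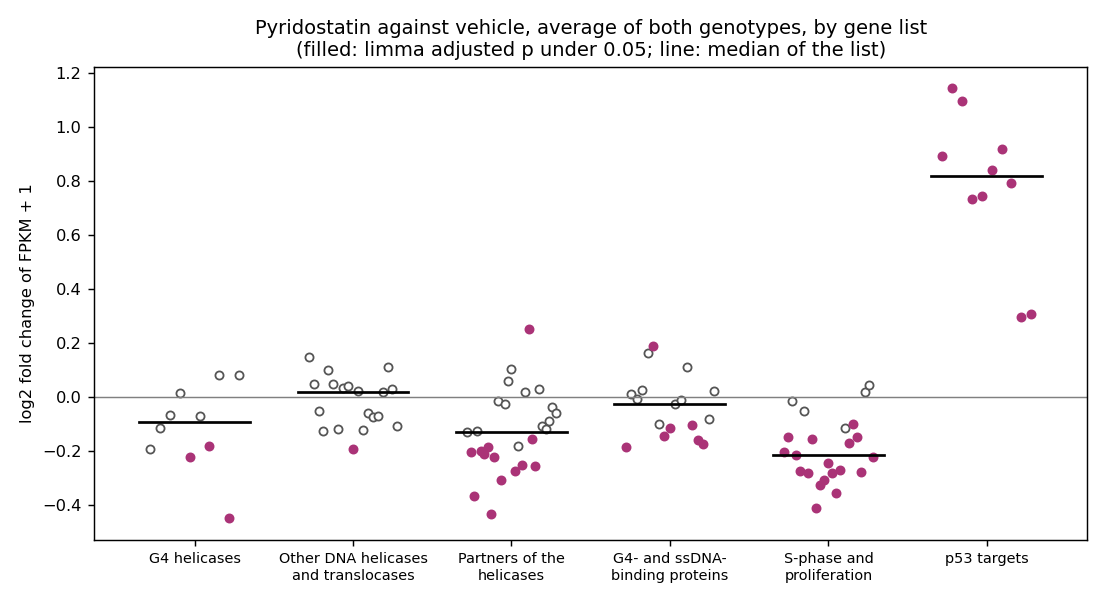
Log2 fold change of FPKM + 1 with pyridostatin, averaged over genotypes, for each gene of 6 lists; points are genes, filled at a limma adjusted p under 0.05, and lines are medians. The 10 helicases followed here (labelled G4 helicases) centre at -0.09, the S-phase genes at -0.21 and the p53 targets at 0.82.

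Across the 12 libraries, the genes whose log2(FPKM + 1) followed BLM most closely were ATAD2 (Pearson r = 0.948), GPSM2 (0.915), ECT2 (0.914), BRCA1 (0.911) and KIF11 (0.904). These are a chromatin ATPase, a spindle orientation protein, a cytokinesis factor, the recombination protein BRCA1 and a mitotic kinesin. Without replicate 2 of wild type with vehicle the values were 0.942, 0.928, 0.909, 0.928 and 0.892. Among the helicases BRIP1 was closest to BLM (0.809, rank 100 of the genes tested), and RECQL5 ran opposite (-0.502). The libraries share treatment and genotype, and these values only describe the pattern.

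Between genotypes only RECQL5 was called, and only in the average of both treatments. In libraries labelled PARP3-/- against wild type with vehicle, 0 of 10 helicases were called, beside 9.41% of all genes, and with pyridostatin 0 of 10 were called, beside 10.9%. At an unadjusted p under 0.05, RECQL5 and RECQL passed with vehicle (21.6% of all genes) and RECQL5 and DHX36 with pyridostatin (24%). Averaged over both treatments 1 of 10 was called (RECQL5), beside 19.1% of all genes. Without replicate 2 of wild type with vehicle, 2 of 10 were called in the average (RECQL5 and DHX36, beside 27.2%), 1 with vehicle (RECQL5, beside 13.8%) and 1 with pyridostatin (DHX36, beside 19.3%).

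RECQL5, which binds RNA polymerase II, was at 9.74, 10.2 and 9.59 FPKM in wild type with vehicle and 10.7, 11.1 and 11.2 FPKM in the libraries labelled PARP3-/-. With pyridostatin it was at 10.8, 10.2 and 10.98 FPKM in wild type and 11.8, 11.6 and 11.02 FPKM in the libraries labelled PARP3-/-. The groups did not overlap within either treatment, but they did when treatments were pooled. The averaged difference was 0.12 ± 0.0299 (log2, SE, adjusted p = 0.0150), a mean 9.72% higher in FPKM. It was lost after quantile normalisation (0.09, adjusted p = 0.0971), after a shift to a common median (0.09, adjusted p = 0.107) and after removal of the transcript length trend (0.09, adjusted p = 0.0599).

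For the other helicases no genotype difference was called within a treatment, and the numbers of members without overlap were near the shares over all genes. RECQL did not overlap with vehicle (0.17 ± 0.0706, adjusted p = 0.200), making 2 helicases higher without overlap with RECQL5, beside 15% of all genes. With pyridostatin DHX36 (-0.13 ± 0.0536, adjusted p = 0.181) and WRN (-0.07 ± 0.0851, adjusted p = 0.666) lay below wild type without overlap, beside 15.9% of all genes, and RECQL5 lay above it, beside 19.3%. DHX36 was at 29.9, 30.3 and 29.1 FPKM in wild type with pyridostatin and at 26.5, 28.1 and 27.0 FPKM in the libraries labelled PARP3-/-. It was called lower without replicate 2 of wild type with vehicle (adjusted p = 0.0256), a library outside that comparison that enters through the shared estimate of the spread. BLM did not differ past the test, at 0.04 with vehicle (95% confidence interval -0.14 to 0.23) and -0.05 with pyridostatin (-0.24 to 0.14).

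**Figure D5:**
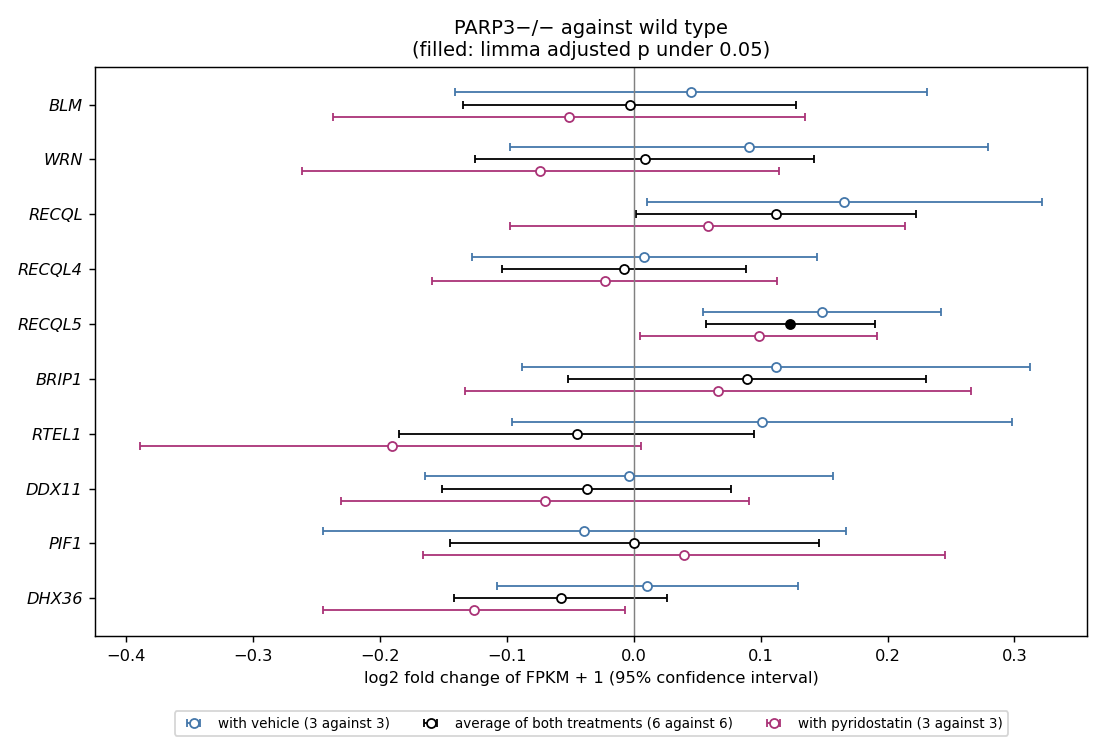
Log2 fold change of FPKM + 1 between libraries labelled PARP3-/- and wild type for the 10 helicase genes, with 95% confidence intervals, with vehicle (upper marker), averaged over treatments (middle) and with pyridostatin (lower); the only filled marker (limma adjusted p under 0.05) is the average of RECQL5 (0.12).

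The lists beside the helicases were compared between genotypes in the same way. Of the other DNA helicases and translocases, 0 of 19 were called by limma with vehicle, with pyridostatin or in the average (1, 2 and 4 at an unadjusted p under 0.05). The shares over all genes, here and for the lists below, were 9.41%, 10.9% and 19.1% (21.6%, 24% and 31% unadjusted). Leaving out replicate 2 of wild type with vehicle gave 0, 2 and 5 calls, all of them lower, beside 13.8%, 19.3% and 27.2% of all genes. Among the partners, XRCC5 (Ku80), which binds WRN, was lower with vehicle (-0.12, adjusted p = 0.0303) and with pyridostatin (-0.20, adjusted p = 0.00223), and GINS3 was higher with vehicle (0.13). Among the G4-binding proteins limma called 0 of 17 with vehicle (3 at an unadjusted p under 0.05, and 1 without replicate 2 of wild type with vehicle) and 3 with pyridostatin, all lower: NCL, the G4-binding protein nucleolin (-0.30, adjusted p = 0.0018), HNRNPA2B1 (-0.20) and CNBP (-0.12). NCL was at 391, 392 and 423 FPKM in wild type and 319, 332 and 324 FPKM in the libraries labelled PARP3-/-. In the average, where 19.1% of all genes were called, 2 of 23 S-phase genes were higher and 5 lower, and 4 of 10 p53 targets were higher and 1 lower. With replicate 2 of wild type with vehicle left out these were 4 and 6 S-phase genes and 5 and 1 p53 targets, beside 27.2%. The line labelled PARP3-/- also differed in epithelial genes, with CDH1, EPCAM and KRT18 lower and KRT19 higher in the average, and 3 of the 9 markers of other cell types passed the filter (CD14, CD68 and COL1A1), all higher in it. The sum of those 9 markers was 17.7 to 21.0 FPKM over wild-type libraries and 24.9 to 28.6 FPKM over libraries labelled PARP3-/-, and their part in the helicase values was not tested.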

How the data were processed

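The 12 libraries were grouped by the sample labels. The authors deposited FPKM values from Cufflinks, 1 column per library without pooling; their submission notes name bcl2fastq 2.16, STAR 2.5, Cufflinks and the builds hg19 and mm9, with no role given, and the annotation is not given in the sources used here. The counts the authors tested with DESeq2 were not used here. The FPKM values were taken as log2(FPKM + 1), without further scaling, for the 11881 genes whose mean reached 1 FPKM, so fold changes of low genes are understated. One limma model (limma 3.58.1, R 4.3.3, eBayes with a trend, no block) of the 4 groups gave each comparison, with p-values adjusted by Benjamini-Hochberg over all 11881 genes tested and calls at an adjusted p under 0.05. The procedure was tested on simulated data with 200 changed genes.

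The members were defined by symbol and function, with no threshold on their values, but they, the gene lists and the tests were chosen with earlier results of these data known. Text names all members, at most 4 called genes with the largest change per list and comparison, every gene that can share reads with a member, PARP3, and the 5 genes most correlated with BLM; marker genes of A549 and of other cell types were added as a check. A few list genes and their values are not reported here. Depth was estimated from low values that are whole multiples of 1 read (190 genes, GENCODE 29 lengths), and is approximate: beside the library used as reference, 13.3% to 15.1% of those values in a library lay at the common step. Transcript lengths matched 93.7% of the genes tested. Promoter windows are RefSeq sequences on GRCh38.p14 and were examined for 8 of 10 members. Member windows on chromosome 8 were left out, and WRN and RECQL4 were not among the 8 members. Alternatives were another pseudocount, other filters, other scaling, only the libraries of a comparison, no trend, a replicate block, each library left out, and, chosen after seeing the data, array weights, removal of the transcript length trend and sums over read-sharing rows. Figures were drawn with matplotlib 3.10.9 under Python 3.11.15.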

Additional observations from a re-analysis of the deposited data

How the results depend on the processing

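No called value changed direction under any alternative, and of 1503 recomputed fold changes of single helicases 1449 kept their side of the threshold, 36 newly passed it and 18 no longer did; 73 changed sign without being called in either setting. RTEL1 was called in all 21 alternatives of the averaged pyridostatin comparison (log2 fold change -0.54 to -0.39) and all 22 in PARP3-/-, RECQL4 in 20 of 21 (averaged), RECQL5 in 18 of 21 (averaged genotype comparison) and PIF1 in 7 of 21. With a filter at a mean of 5 FPKM, which takes RTEL1, WRN and BRIP1 out of the test, 0 helicases were called for pyridostatin in PARP3-/- and 1 in the average. Quantile normalisation and a shift to a common median each left 0 called in the averaged genotype comparison. Leaving out 1 library at a time gave 1 to 6 helicases called in the averaged pyridostatin comparison, 1 to 4 in PARP3-/-, 0 to 1 in wild type, 0 to 1 in each single genotype comparison and 1 to 2 in their average; the highest counts came without replicate 2 of wild type with vehicle, except that pyridostatin in wild type also reached 1 without replicate 3 of PARP3-/- with pyridostatin (RTEL1, adjusted p = 0.0342) and genotype with vehicle also reached 1 without replicate 2 of wild type with pyridostatin (RECQL5, adjusted p = 0.0492). Without replicate 2 of wild type with vehicle, 19.5% of all genes were called for pyridostatin averaged, 5.94% in wild type and 13.1% in PARP3-/-. For genotype the shares were 13.8% with vehicle, 19.3% with pyridostatin and 27.2% averaged. Array weights gave that library a weight of 0.101 against 0.658 to 3.99 for the others. The counts were then 7 (pyridostatin averaged), 4 (wild type), 4 (PARP3-/-), 1 (genotype with vehicle), 1 (genotype with pyridostatin) and 3 (genotype averaged). In the same order, 3930, 3028, 2133, 3225, 3332 and 4615 of 11881 genes were called, against 1657, 495, 661, 1118, 1297 and 2275 in the main fit. Removing the transcript length trend gave 5 (pyridostatin averaged), 2 (pyridostatin in PARP3-/-) and 1 (genotype with pyridostatin). The numbers of all genes called in that setting are not given here. The cause of these shifts was not tested. Same-numbered replicates did not deviate together (18 pairs, correlation -0.12 to 0.216, mean 0.0382, 3 above 0.1), so the number was not taken as a pairing; with the replicate block 2 helicases were called in the averaged pyridostatin comparison, PIF1 being lost (adjusted p = 0.0531), 1 in PARP3-/- and 1 in the averaged genotype comparison. The fit of only the libraries of a comparison was run for the 4 simple comparisons. With about 340 to 6200 reads a library on each helicase, the counting error of 1.3% to 5.4% overlapped the spread between libraries of a group (coefficient of variation 1.43% to 17.5%). Differences of a few percent in a helicase could go uncalled, and the smallest difference detectable at this depth is not given here.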
